A study of Homo sapiens
Mus musculus with 8 samples.

Results

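CD4 and CD8 are the coreceptors of the T cell receptor, and their transcripts were followed here through a mixture of 4 lymphocyte lines. The genes were human CD4 (ENSG00000010610), CD8A (ENSG00000153563) and CD8B (ENSG00000172116) and mouse Cd4 (ENSMUSG00000023274), Cd8a (ENSMUSG00000053977) and Cd8b1 (ENSMUSG00000053044), which are 6 of the 60736 genes in the deposited matrices. They were followed in every cell that could be assigned to a line. A cell was a barcode with at least 1000 unique molecular identifiers (UMIs, 1 per captured molecule) and over 80% of them from 1 species. A mouse cell was EL4 if Lgals1, S100a6 and Perp together had at least 5 times the UMIs of Epcam, Cd24a, Ctss and Ckap4, and IVA12 if the reverse held. A human cell was TALL-104 if NKG7 and CST7 made up at least 0.1% of its UMIs and Jurkat if they made up under 0.02%. Of 32377 barcodes with at least 1000 UMIs, 10905 were EL4, 5829 IVA12, 8123 Jurkat and 2652 TALL-104 cells. No coreceptor gene took part in these rules.

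CD4 is a single chain that binds MHC class II, whereas CD8 is a dimer that binds MHC class I. CD8 occurs as a CD8A homodimer, also found on NK cells and unconventional T cells, or as a CD8A and CD8B heterodimer, the usual form on cytotoxic T cells. CD8B needs CD8A to reach the cell surface. The tails of CD4 and CD8A carry the kinase LCK to the T cell receptor complex. Mature T cells usually keep 1 of the 2 coreceptors, while thymocytes pass through a stage with both and earlier progenitors have neither.

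Equal numbers of cells of the 4 lines were mixed and run on 10x Chromium droplets to compare kits, with no other treatment. EL4 is a mouse T lymphoma line and Jurkat a human T cell leukaemia line, both described in the study as CD4+ T cells. IVA12 is described as mouse B cells and TALL-104, a small leukaemic line grown with IL-2, as human CD8+ T cells. The 3′ v3 kit (4 libraries, from mixtures F and G), the 5′ v1 kit (2 libraries, mixture B) and the 3′ v2 kit (replicate 2 only, mixture A) were analysed, so kit and mixture cannot be told apart. Nothing in the labels says that libraries came from separate cultures. The p-values therefore measure the spread between libraries, which may be technical. With only 2 libraries, as in 5′ v1, or with few UMIs, they rest largely on variability estimated over all genes and on counting error.

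Libraries held 24790710 to 251164949 UMIs over all barcodes. Median depth per cell was 10066.5 to 18529.5 UMIs in Jurkat and 1928 to 2761.5 in TALL-104 across the 7 libraries. The libraries gave 289 to 3060 Jurkat cells each, but only 30 to 1044 TALL-104 cells, with 70 and 30 in 5′ v1. Any 2 libraries shared at most 33 barcodes and, in another pair, at most 1.00% of those of the smaller library.

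The line names were checked against defining genes, as counts per 1000000 UMIs of the line's own species (CPM), summed over the genes of a list in each library. Across the libraries, 8 T lineage genes summed to 2000 to 2933 CPM in EL4 and 17.9 to 65.6 CPM in IVA12. The 6 B lineage genes found in the reference, of 8 listed, summed to 1922 to 4966 CPM in IVA12 and 7.21 to 112 CPM in EL4, but Cd79a was under 1 CPM in IVA12. In the human cells, 8 T lineage genes summed to 2770 to 3478 CPM in Jurkat and 3792 to 5355 CPM in TALL-104. The 8 cytotoxic genes reached 2621 to 9135 CPM in TALL-104 and 19.2 to 61.9 CPM in Jurkat, while 4 of 6 listed T leukaemia genes that lean to Jurkat gave 379 to 801 CPM in Jurkat and 0 to 22.9 CPM in TALL-104. Myeloid and dendritic genes, which mark other CD4 or CD8 carrying cells, summed to at most 9.16 CPM in the mouse lines, 2.06 CPM in Jurkat and 19.6 CPM in TALL-104. Of the NK genes, NCR1 brought TALL-104 to 16.6 to 37.8 CPM, KLRF1 was under 1 CPM, and both were at most 0.107 CPM together in Jurkat. In EL4, the NK genes Ncr1 and Klrb1c summed to at most 0.0898 CPM, and in IVA12 to 0.

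In the human lines, CD8A was the coreceptor of TALL-104 and CD8B the most counted coreceptor of Jurkat. TALL-104 cells held 278 UMIs of CD8A, 8 of CD8B and 1 of CD4. Jurkat cells held 947 UMIs of CD8B, 175 of CD4 and 125 of CD8A. UMIs count captured transcript ends and are not scaled by transcript length, so these numbers were not divided by length. The line described as CD4+ thus gave more UMIs of a CD8 chain than of CD4, in each of its 7 libraries, though by only 10 against 7 UMIs in 3′ v2. These are RNA counts. Surface protein was not measured here, so the counts do not test the description of the line.

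CD8A encodes the chain found in both forms of CD8. In TALL-104, its level in the 4 libraries of 3′ v3 was 37.2, 52.7, 40.1 and 59.2 CPM (47.3 ± 10.4, SD, n = 4). The 2 libraries of 5′ v1 gave 89.7 and 54.2 CPM, and the single 3′ v2 library gave 33.2 CPM from 4 UMIs. Jurkat was at 1.01, 0.885, 0.973 and 0.746 CPM in the libraries of 3′ v3 (0.903 ± 0.116, SD, n = 4). The 5′ v1 libraries gave 0.456 and 1.07 CPM there, and the 3′ v2 library 0.506 CPM. Every TALL-104 value lay above every Jurkat value. In 3′ v3, 16.1% of human genes had all TALL-104 libraries above all Jurkat libraries in CPM. In edgeR's quasi-likelihood test on counts summed per library and line, CD8A was higher in TALL-104 by 5.69 on the log2 scale with 3′ v3 (SE 0.218, adjusted p = 2.1e-09) and by 6.85 with 5′ v1 (SE 0.669, adjusted p = 7.4e-23). That 5′ v1 fit rests on 24 UMIs in TALL-104 and 25 in Jurkat over 2 libraries, so its smaller p-value is not a stronger result. Among all genes tested, 32.7% were called higher in TALL-104 with 3′ v3 and 11.9% with 5′ v1. As a ratio of pooled counts, CD8A was 48.0 times higher with 3′ v3 (exact 95% interval of the counting error, 37.8 to 61.3).

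CD8B encodes the chain that pairs with CD8A. Its level in Jurkat was 9.46, 7.37, 6.83 and 6.39 CPM in the 3′ v3 libraries (7.51 ± 1.36, SD, n = 4). It was 4.03 and 4.69 CPM in the libraries of 5′ v1 and 2.53 CPM in that of 3′ v2. In TALL-104, the 3′ v3 libraries gave 2.43, 0, 0.477 and 2.09 CPM (1.25 ± 1.19, SD, n = 4), from 3, 0, 1 and 3 UMIs. With 5′ v1, 1 UMI in replicate 1 gave 4.72 CPM and replicate 2 gave none, and 3′ v2 gave none. The lines did not overlap in 3′ v3, where 29.5% of human genes had all Jurkat libraries above all TALL-104 libraries, but they did overlap in 5′ v1. With 3′ v3, CD8B was lower in TALL-104 by edgeR's test, by a log2 fold change of -2.35 (SE 0.480, adjusted p = 0.00109), and 33.8% of genes were called lower in that comparison, against 16.3% in the same comparison of 5′ v1. With 5′ v1 the log2 fold change was -0.39 (SE 1.76, adjusted p = 0.895), and the pooled ratio of TALL-104 to Jurkat was 0.776 with an exact interval of 0.0195 to 4.39, so a difference was not detectable at the 100 TALL-104 cells of that kit.

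CD4 encodes the MHC class II coreceptor. In Jurkat, it was at 0.772, 2.95, 0.990 and 3.73 CPM in the 3′ v3 libraries (2.11 ± 1.46, SD, n = 4). The libraries of 5′ v1 had 1.18 and 0.823 CPM, and that of 3′ v2 had 1.77 CPM. In TALL-104, 1 UMI in 3′ v3 replicate 3 (0.477 CPM) was the whole count, and the other libraries were at 0. The TALL-104 sums were small, however, and the limit of 3 counts for their zeros was 2.43, 4.51 and 2.09 CPM in 3′ v3 replicates 1, 2 and 4, 14.2 and 32.5 CPM in 5′ v1, and 24.9 CPM in 3′ v2. Only in 3′ v3 replicate 4 did the Jurkat level exceed that limit, so a lower level in TALL-104 was not detectable in the other libraries with a zero taken singly. The gene did not pass edgeR's filter on low counts for the line comparison in either kit. Without that filter, the log2 fold change of TALL-104 over Jurkat was -3.25 with 3′ v3 (SE 1.12, edgeR adjusted p = 0.0105). With 1 UMI in TALL-104, this p-value does not measure the spread between libraries. The pooled 3′ v3 counts gave a ratio of Jurkat to TALL-104 of 6.75, with an exact interval of 1.19 to 269.

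Within Jurkat, neighbouring levels differed by more than their spread only for CD8B. CD8B lay above CD4 and CD8A in each library, and the lowest CD8B value with 3′ v3 (6.39 CPM) was above the highest CD4 value (3.73 CPM). In the 3′ v2 library, 10 UMIs of CD8B and 7 of CD4 do not settle their order (exact intervals 1.21 to 4.65 and 0.712 to 3.65 CPM). The exact intervals of CD8B and CD4 also overlapped in 3′ v3 replicates 2 and 4, at 25 against 10 and 60 against 35 UMIs. CD4 and CD8A could not be ordered. CD4 was below CD8A in 3′ v3 replicate 1 and in 5′ v1 replicate 2 and above it in the other libraries.

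**Figure D1:**
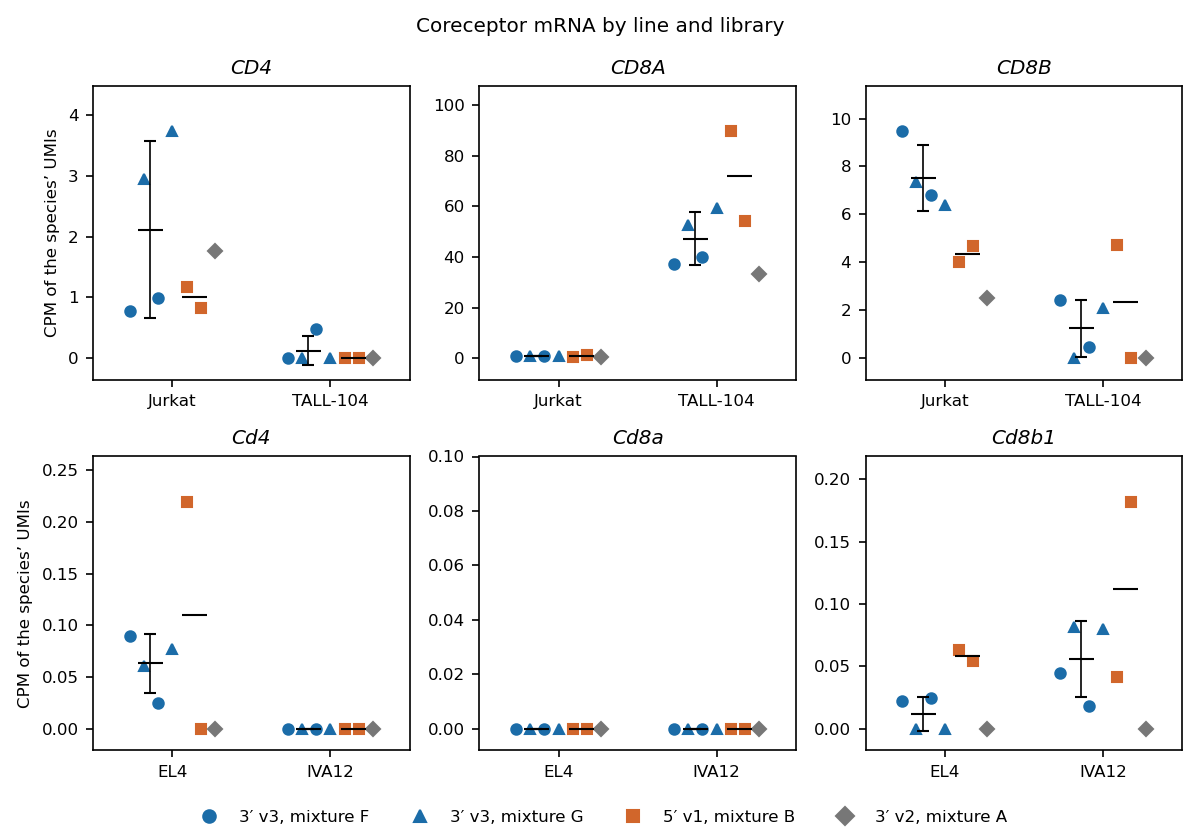
Level of each coreceptor gene in CPM of the species' UMIs (vertical axis, linear, own range per panel) by line, with 1 point per library, shaped by kit and mixture. Horizontal bars are means of 3′ v3 and of 5′ v1, and error bars the SD over the 4 libraries of 3′ v3. CD8A stands at 33.2 to 89.7 CPM in TALL-104 and at most 1.07 CPM in Jurkat, CD8B leads in Jurkat, and no mouse value reaches 0.220 CPM apart from 1 library of EL4 at that level for Cd4.

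The makeup of the CD8 transcripts separated the human lines without reference to total depth. CD8B made up 90.4%, 89.3%, 87.5% and 89.6% of the CD8A and CD8B UMIs of Jurkat in the 3′ v3 libraries, 89.8% and 81.4% in those of 5′ v1 and 83.3% in the library of 3′ v2. In TALL-104, the share was 6.12%, 0%, 1.18% and 3.41% with 3′ v3, 5.00% and 0% with 5′ v1, and 0% in the library of 3′ v2. The lowest Jurkat share was far above the highest TALL-104 share. Their exact 95% intervals did not overlap within any library of 3′ v3 or 5′ v1, but with 4 CD8 UMIs in TALL-104 the 3′ v2 intervals did.

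**Figure D2:**
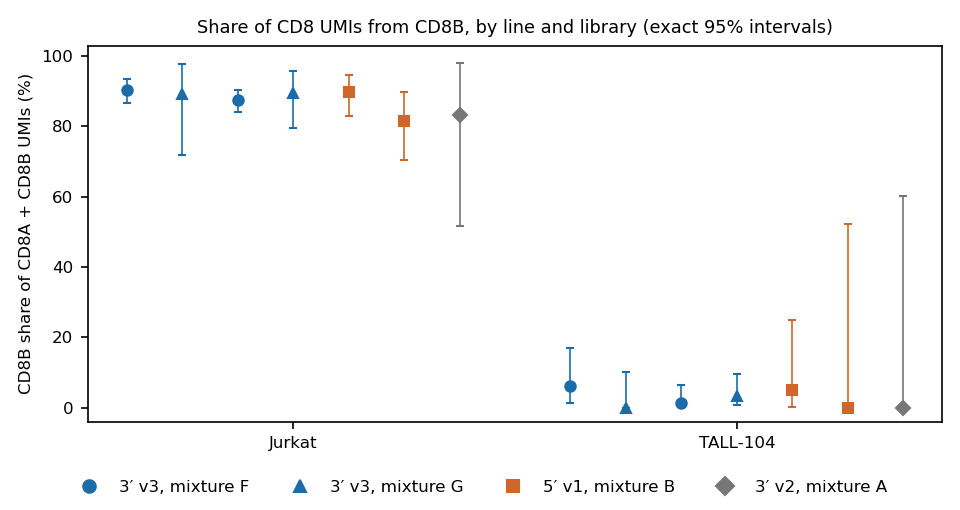
Percent of CD8A and CD8B UMIs that came from CD8B (vertical axis) in Jurkat and TALL-104, with 1 point per library and exact 95% binomial intervals for counting error. Jurkat libraries sit between 81.4% and 90.4%, and TALL-104 libraries between 0% and 6.12%.

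Free RNA and droplets that catch more than 1 cell can both give human UMIs to a mouse barcode. The mouse cells of the same libraries show free RNA together with those shared droplets that kept over 80% of UMIs from 1 species. These were not separated here. That limit does not remove droplets that hold a Jurkat and a TALL-104 cell, so the mouse level does not measure them. Their part was not tested. Per 1000 cells, CD8A gave 72.8, 145, 80.5 and 143 UMIs in TALL-104 with 3′ v3, against 1.08, 0, 4.12 and 7.66 in the mouse lines. CD8A in Jurkat gave 19.3, 10.3, 19.0 and 7.85 UMIs per 1000 cells in the same libraries. In replicate 4, the Jurkat level (exact 95% interval 3.16 to 16.2) was nearly that in mouse cells (4.61 to 11.96), where 19 UMIs lay in 0.565% of 2480 cells. With 5′ v1, Jurkat gave 8.58 and 20.3 CD8A UMIs per 1000 cells, while the mouse cells gave none.

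CD8B in TALL-104 was near its level in the mouse cells with 3′ v3. It gave 4.75, 0, 0.958 and 5.06 UMIs per 1000 cells in 3′ v3, and the mouse lines gave 1.80, 3.55, 1.98 and 4.44. Jurkat gave 182, 85.6, 133 and 67.3. In 5′ v1, the single CD8B UMI of TALL-104 amounted to 14.3 per 1000 cells, and the mouse cells held none. CD4 in Jurkat gave 14.8, 34.2, 19.3 and 39.2 UMIs per 1000 cells in 3′ v3, above the 0.359, 0, 0.165 and 2.02 of the mouse cells. The single CD4 UMI of TALL-104 amounted to 0.958 per 1000 cells, against 0.165 in the mouse cells of its library, and 1 UMI does not set a level apart from these.

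**Figure D3:**
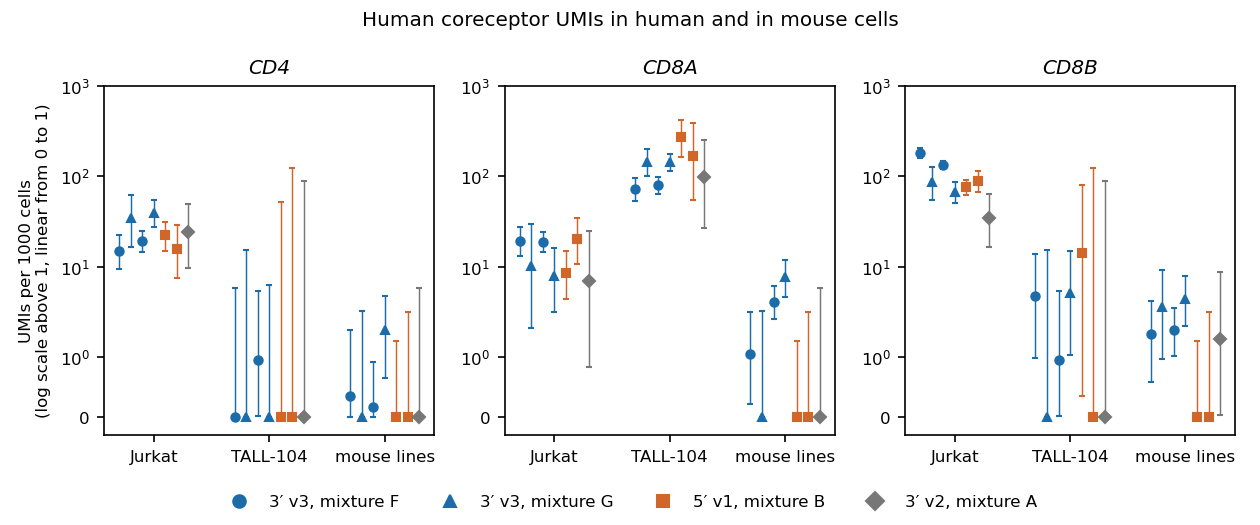
UMIs of CD4, CD8A and CD8B per 1000 cells (vertical axis, log scale above 1 and linear from 0 to 1) in Jurkat, TALL-104 and the pooled mouse lines, with 1 point per library and exact 95% Poisson intervals. With 3′ v3, CD8B of TALL-104 lies among the mouse cells, whereas CD8A of TALL-104 (72.8 to 271 per 1000 cells) and CD8B of Jurkat (34.6 to 182) lie above them in every library.

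Most cells of either human line showed no coreceptor UMI at all. CD8B was seen in 15.6%, 7.88%, 11.7% and 6.17% of Jurkat cells with 3′ v3, 6.58% and 7.98% with 5′ v1, and 3.46% with 3′ v2. CD8A was seen in 6.65%, 11.6%, 7.66% and 11.97% of TALL-104 cells with 3′ v3, 21.4% and 16.7% with 5′ v1, and 7.32% with 3′ v2, although these cells had a median of at most 2761.5 UMIs. In the mouse cells, which lack both genes and had a median of 24102.5 to 27881 UMIs, at most 0.355% held a UMI of CD8B and at most 0.565% a UMI of CD8A in any library. CD4 was seen in at most 0.161% of mouse cells. Among Jurkat cells, 731 held 1 UMI of CD8B, 86 held 2 and 13 held 3 or more, the highest being 8 in a cell of 35108 UMIs. Among TALL-104 cells, 213 held 1 UMI of CD8A, 28 held 2 and 3 held more.

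In most libraries, CD8A was seen in a larger share of the Jurkat cells that had CD8B than of those that had none. In 3′ v3 replicate 1, CD8A was seen in 2.89% of 242 cells with CD8B and 1.75% of 1311 cells without it, and in replicate 3 in 2.52% of 357 and 1.78% of 2703. This order held in 6 of 7 libraries, but it rests on 0 to 9 cells in each. Cells with CD8B were deeper in those 6 libraries, with medians of 18050.5 and 17220 UMIs in replicate 1, and the part of depth was not tested. For CD4, the order varied between libraries. CD4 was seen in 5.45% of cells with CD8B and 3.58% without it in 3′ v3 replicate 4, but in 1.24% and 1.37% in replicate 1.

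The levels varied with the depth of the cell. In Jurkat of 3′ v3, CD8B was at 6.99 CPM in cells of 1000 to 5000 UMIs, 12.5 CPM from 5000 to 10000, 8.60 CPM from 10000 to 20000 and 6.36 CPM above that. CD8A in Jurkat of 3′ v3 was at 8.15 CPM (3.28 to 16.8, exact 95% interval) in the 378 cells of 1000 to 5000 UMIs, from 7 UMIs, and at 0.758 to 1.03 CPM in deeper cells. In TALL-104 of 3′ v3, CD8A was at 48.5 CPM in the 2458 cells of under 5000 UMIs and 13.2 CPM in the 48 cells of 5000 to 10000 UMIs. TALL-104 cells rest on few marker UMIs. CD8A was at 27.7 CPM (9.001 to 64.7, exact 95% interval) in the 124 cells with 1 to 2 UMIs of NKG7 and CST7, at 41.5 CPM (31.0 to 54.5) with 3 to 4, and at 49.96 CPM (43.6 to 57.0) in the 1859 cells with 5 or more. When over 95% of UMIs had to come from 1 species, 531 of 2511 TALL-104 cells of 3′ v3 were left, only 3 of them in replicate 3. Mean CD8A was then 30.8 CPM. Each library counts equally in that mean, so the 3 cells of replicate 3 weigh as much as any other library. It therefore does not show a lower level in the cells that were left.

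CD4 in Jurkat separated the 3′ v3 libraries by mixture. Both libraries of mixture G (2.95 and 3.73 CPM) lay above both of mixture F (0.772 and 0.990 CPM), a ratio of means of 3.79. Among the human genes with enough counts in Jurkat, 57% also had both libraries of G above both of F, and 6.54% had a mean at least 3 times higher in G, so the separation alone is common. Jurkat cells of mixture G had a median mitochondrial share of 10.1% to 10.3% and 10066.5 to 10907.5 UMIs, and those of F had 4.75% to 6.26% and 17438 to 17893.5 UMIs. In cells of at most 10% mitochondrial UMIs, CD4 was at 0.685 and 0.992 CPM in F and at 3.38 and 3.49 CPM in G. In cells of 10000 to 20000 UMIs, it was at 0.371 and 1.04 CPM in F and at 1.07 and 3.77 CPM in G, so the lower library of G there was close to the higher of F. The difference between the mixtures was not tested, and mixture, RNA quality and depth cannot be told apart.

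The kit comparison asked how the choice of transcript end and chemistry moves each gene. In Jurkat, no coreceptor differed between 3′ v3 and 5′ v1 past the threshold, and 17.5% of all genes tested did. CD8B of 3′ v3 did not overlap with 5′ v1 and was higher by 0.80 on the log2 scale (SE 0.301, edgeR adjusted p = 0.107). Without overlap, 23.3% of genes were higher in 3′ v3. CD4 had a log2 difference of 0.75 (SE 0.619, adjusted p = 0.420) and CD8A of 0.39 (SE 0.470, adjusted p = 0.592), the latter turning to -0.15 without 5′ v1 replicate 1. By mixture, the mean CPM of CD8B in 3′ v3 was 1.87 times that of 5′ v1 for F and 1.58 times for G, while the CD4 difference in CPM turned from -0.120 for F to 2.34 for G.

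In TALL-104, CD8A was the only coreceptor with enough counts for the kit test. The log2 difference of 3′ v3 from 5′ v1 was -0.61 (SE 0.372, edgeR adjusted p = 0.358), in a comparison where 4.37% of genes were called. Mean CD8A was 38.6 CPM in mixture F, 55.9 CPM in G and 71.9 CPM in 5′ v1, so the 3′ v3 mean was 0.537 and 0.777 times that of 5′ v1. The line difference itself did not differ between kits past the threshold, with an interaction of -1.25 for CD8A (SE 0.580, edgeR adjusted p = 0.370) and -2.08 for CD8B (SE 1.96, adjusted p = 0.743). In that test 1.3% of genes were called. Without 5′ v1 replicate 1, which held 70 of the 100 TALL-104 cells of its kit, these differences turned to 0.023 for CD8A in TALL-104 and to 0.23 and 6.31 for the interactions.

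Shares of cells were compared after thinning each cell to 1000 UMIs. CD8B was then seen in 0.816% ± 0.158 (SD, n = 4) of Jurkat cells with 3′ v3 and in 0.446% ± 0.0629 (SD, n = 2) with 5′ v1. CD8A was seen in 4.82% ± 0.970 (SD, n = 4) of TALL-104 cells with 3′ v3 and in 8.76% ± 0.468 (SD, n = 2) with 5′ v1. In both, the kits did not overlap, and the exact two-sided permutation test gave p = 0.0667, the smallest it can give with 4 against 2 libraries, so no share could pass (adjusted p = 0.167 over 5 human pairs of gene and line). How many other genes had shares without overlap was not counted. Both results depended on the setting. Thinned to 2000 UMIs, the exact permutation test gave p = 0.267 for CD8A in TALL-104. For CD8B in Jurkat, the exact permutation test gave p = 0.533 without thinning and 0.2 at most 10% mitochondrial UMIs. The exact permutation test still gave p = 0.0667 for CD8A at those settings and for CD8B thinned to 2000 UMIs. Thinned to 1000 UMIs, the exact permutation p was 0.333 for CD4 in Jurkat, 0.2 for CD8A in Jurkat and 0.533 for CD8B in TALL-104. In Jurkat at this common depth, CD8B was the most often seen coreceptor with either kit, ahead of CD4 (0.205% and 0.0932%) and CD8A (0.182% and 0.0801%).

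The mouse coreceptors were almost absent from the counts. Cd8a had 0 UMIs in 10905 EL4 cells and in 5829 IVA12 cells, which at the limit of 3 counts allows up to 0.0124 CPM in EL4 and 0.0196 CPM in IVA12. It allows a captured UMI in up to 0.0275% of EL4 and 0.0515% of IVA12 cells, which limits the cells with a UMI and not the cells with the transcript. Cd4 had 4, 1, 2 and 3 UMIs in EL4 with 3′ v3, which is 0.0898, 0.0606, 0.0247 and 0.0776 CPM (0.0632 ± 0.0283, SD, n = 4). With 5′ v1, EL4 had 7 and 0 UMIs (0.220 and 0 CPM), and with 3′ v2 it had none. In IVA12, Cd4 had 0 UMIs in each of the 7 libraries. The 17 UMIs of Cd4 in EL4 came from 15 cells, and as a pooled level they were at least 2.61-fold higher than in IVA12 by the exact lower 95% limit. That limit was 1.43 in 3′ v3 alone and 1.00 in 5′ v1 alone, where replicate 1 held all 7 UMIs. Set against the limit of 3 counts over all IVA12 cells, the ratio was 3.58. No human cell held a UMI of mouse Cd4. At the limit of 3 counts, this allowed 5.62, 0.731 and 2.02 UMIs per 1000 cells in 3′ v3 replicates 2, 3 and 4. EL4 gave 1.54, 0.484 and 2.02 there, not above those limits, so the human zeros do not set EL4 apart in these libraries. In replicate 1 of 3′ v3 and of 5′ v1, the limits were 1.37 and 2.04, below the 1.99 and 4.91 of EL4. EL4, the line described as CD4+, gave its own coreceptor at 0.0700 CPM over all libraries, where Jurkat gave CD4 at 1.21 CPM. This too is an RNA count and does not test that description.

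Cd8b1 was found at a few UMIs in both mouse lines. EL4 had 1, 0, 2 and 0 UMIs in the 3′ v3 libraries and 2 and 1 in those of 5′ v1. IVA12 had 1, 1, 1 and 2 UMIs with 3′ v3, followed by 1 and 2 with 5′ v1. Neither line had any in the 3′ v2 library. The lines overlapped, and the pooled ratio of EL4 to IVA12 was 0.474 with an exact interval of 0.135 to 1.56. None of the 3 mouse genes passed edgeR's filter on low counts in any comparison. Without the filter, the EL4 to IVA12 log2 fold change in 3′ v3 was 4.08 for Cd4 (SE 1.82, edgeR adjusted p = 0.0731) and -1.15 for Cd8b1 (SE 1.29, adjusted p = 0.480), where the fitted value of Cd4 is no bound because IVA12 was at 0. Thinned shares of Cd4 in EL4 were 0.00486% with 3′ v3 and 0.0146% with 5′ v1 (exact permutation p = 0.467).

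The partners of the coreceptors are the T cell receptor complex and its proximal signalling molecules. In Jurkat, LAG3, a CD4-like receptor for MHC class II, was the only one under 1 CPM in every library. In TALL-104 none was, but a single UMI can pass that level there (4.72 CPM in 5′ v1 replicate 1). This does not show each partner to be expressed in TALL-104. Of 19 listed, 18 were tested with 3′ v3, and 12 were higher in TALL-104, 2 were lower and 4 did not pass, where 32.7% of all genes were higher and 33.8% lower. Their median log2 fold change was 0.67, where all genes had a median of -0.03. IL16, a cytokine that binds CD4, was at 178 ± 40.2 CPM in TALL-104 and 6.74 ± 4.43 CPM in Jurkat (SD, n = 4 each), higher by 5.18 on the log2 scale (SE 0.277, edgeR adjusted p = 2.6e-08). CD6, a receptor related to CD5, and PTPRC, the CD45 phosphatase that acts on LCK, were higher by 2.26 (SE 0.136) and 1.73 (SE 0.127). CD28, the costimulatory receptor, was lower by a log2 fold change of -2.98 (SE 0.269), and the adhesion receptor CD2 by -1.06 (SE 0.128). LCK itself, which both CD4 and CD8A bind, stood at 403 ± 9.25 CPM in Jurkat and 443 ± 26.9 CPM in TALL-104 (SD, n = 4 each), a difference of 0.27 (SE 0.112, edgeR adjusted p = 0.0489) that passed in 2 of 13 alternatives and reversed in 1. With 5′ v1, 7 partners were higher, 2 lower and 9 not called, with a median of 0.29 where all genes had -0.37, and 11.9% of all genes were higher and 16.3% lower.

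Of 26 listed regulators of the CD4 and CD8 lineages, 25 were tested with 3′ v3. In TALL-104, 7 were higher, 14 were lower and 4 did not pass, with a median of -0.50. The number that were higher was near the 32.7% of all genes called higher in this comparison, and 33.8% of all genes were lower. TBX21, the T-bet factor of cytotoxic programmes, was higher by 5.82 on the log2 scale (SE 0.366), and RUNX3, which silences CD4 in the CD8 lineage, by 3.97 (SE 0.257), from 20.8 ± 9.45 CPM in Jurkat to 264 ± 43.3 CPM (SD, n = 4 each). ZBTB7B encodes ThPOK, the factor that sets the CD4 lineage and restrains CD8 genes. It too was higher in TALL-104, by 4.86 (SE 0.400, edgeR adjusted p = 8.6e-07), at 8.09 to 21.6 CPM against 0.185 to 1.47 CPM in Jurkat. In 5′ v1 ZBTB7B could not be tested, with 0 and 43.4 CPM in the TALL-104 libraries. The genes that were lower in TALL-104 included BCL11A, a progenitor factor (log2 fold change -5.77, SE 0.319), MYB (-5.18, SE 0.232), and LEF1, a TCF family factor of immature T cells (-2.77, SE 0.147). With 5′ v1, 3 regulators were higher, 12 lower and 10 not called, with a median of -1.06, where 11.9% and 16.3% of all genes were higher and lower.

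The ligand list held MHC class I genes, which CD8 binds, and class II genes, which CD4 binds. All 7 of 15 that could be tested with 3′ v3 belonged to class I or its peptide loading, and all 7 were higher in TALL-104, with a median of 2.93, where 32.7% of all genes were higher. HLA-B was higher by 3.52 (SE 0.176), HLA-F by 3.48 (SE 0.172) and HLA-E by 3.43 (SE 0.198) by edgeR's test, with adjusted p = 1.6e-08, 1.5e-08 and 4.9e-08. HLA genes are near-identical to each other, and how reads were shared among them is uncertain. With 5′ v1, 7 were tested and 7 higher, with a median of 3.38, where 11.9% of all genes were higher. Of the class II genes, HLA-DRA, HLA-DPA1, HLA-DPB1 and HLA-DQA1, and with them CD74 and CIITA, were under 1 CPM in both human lines. HLA-DRB1 was at 1.59 ± 0.895 CPM in Jurkat with 3′ v3 (SD, n = 4) and had no UMI in TALL-104, whereas HLA-DQB1 was at 0.991 ± 0.434 CPM in Jurkat and 3.17 ± 1.96 CPM in TALL-104 (SD, n = 4 each), and neither passed the filter for the line test.

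**Figure D4:**
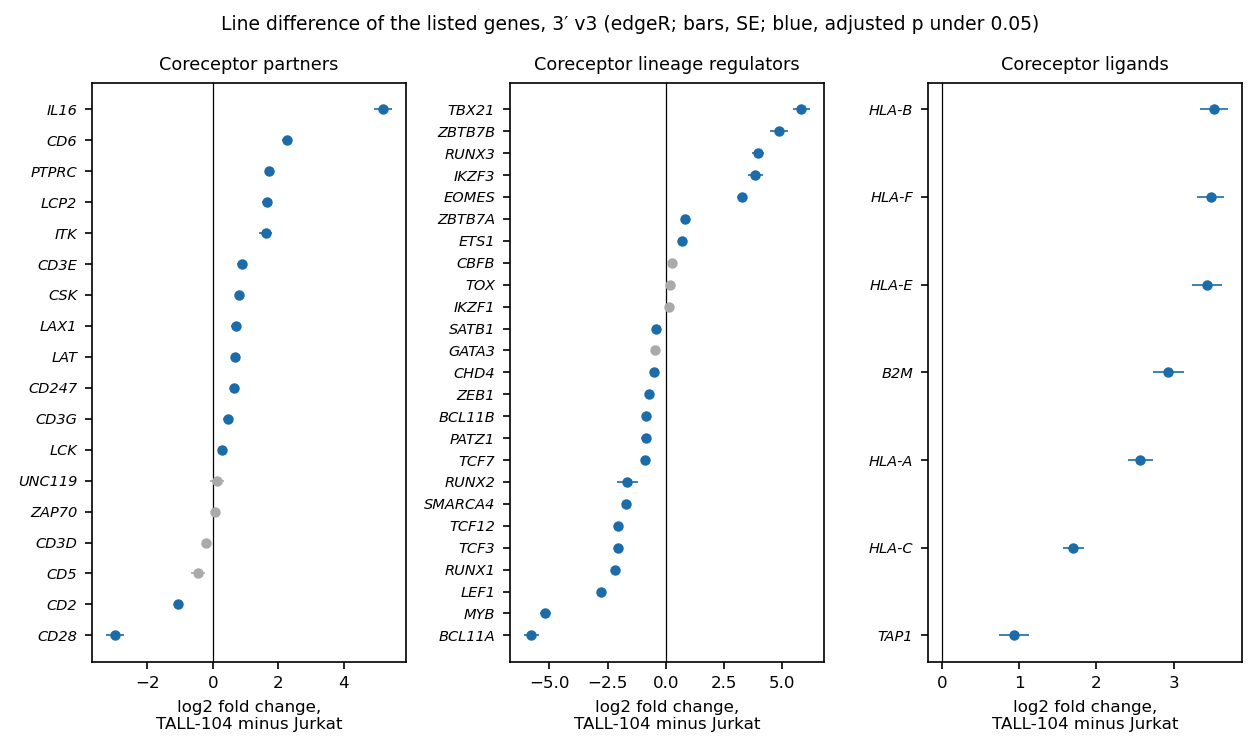
Log2 fold change of TALL-104 over Jurkat (horizontal axis) with 3′ v3 for each tested partner, lineage regulator and ligand gene, with SE bars, coloured blue where the adjusted p was under 0.05. Partners lean to TALL-104 (12 higher, 2 lower), regulators to Jurkat (7 higher, 14 lower), and the 7 ligand genes all lie on the side of TALL-104.

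In the mouse lines, most genes differed: 40.1% of those tested with 3′ v3 were higher in EL4 and 39.1% lower, and with 5′ v1 these were 42.3% and 42.8%. Of 18 partners tested with 3′ v3, 15 were higher in EL4 and 3 lower, with a median log2 fold change of 5.11 where all genes had 0.01. Cd3d, Cd3g and Lat, parts of the T cell receptor complex and its adaptor, were higher by 6.63 (SE 0.165), 6.21 (SE 0.105) and 6.11 (SE 0.214), with edgeR adjusted p = 6.2e-08, 4.4e-08 and 1.7e-07. Cd6 (-4.13, SE 0.173), Il16 (-1.48, SE 0.106) and the adaptor Lax1 (-1.11, SE 0.0836) were lower. EL4 thus had transcripts of the receptor complex (Cd3d at 538 ± 216 CPM, SD, n = 4), with its coreceptors at or near 0. The size of these differences depended on the kit. With 5′ v1, the alternatives gave 11.3 to 11.4 for Cd3d, 6.50 to 6.58 for Cd3g and 9.86 to 10.1 for Lat. From 5′ v1 to 3′ v3, the 8 T lineage genes moved by a median of 2.15 in IVA12 and -0.13 in EL4. All genes moved by 0.02 and 0.05. The SEs of 3′ v3 do not cover this, and its cause was not tested.

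Of 25 mouse regulators tested with 3′ v3, 18 were higher in EL4, 5 lower and 2 not called, with a median of 1.21. Among all genes of that comparison, 40.1% were higher and 39.1% lower. Bcl11b, a T cell commitment factor (6.62, SE 0.194), Tox, needed for CD4 lineage development (6.53, SE 0.209), and Tcf7, an early T cell factor (6.38, SE 0.317), led those that were higher. Bcl11a (-5.94, SE 0.363), the chromatin organiser Satb1 (-4.92, SE 0.232) and Zbtb7b (-0.91, SE 0.108) were lower in EL4, the last at 4.54 ± 0.892 CPM against 8.98 ± 1.65 CPM in IVA12 (SD, n = 4 each, edgeR adjusted p = 0.000101). In 5′ v1, Zbtb7b was not called (-0.03, SE 0.127, edgeR adjusted p = 0.845), at 7.56 and 8.57 CPM in EL4 and 8.86 and 10.2 CPM in IVA12, and Bcl11a was not tested. The line difference of Zbtb7b itself differed between the kits (interaction -0.84, SE 0.188, edgeR adjusted p = 0.00804). That is common here, as 4036 of 13176 mouse genes were called in this interaction, 2272 higher and 1764 lower. Of 25 regulators tested in it, 2 were called higher and 11 lower, and of 18 partners 3 higher and 10 lower. Many of these line differences thus varied in size with kit or mixture. Of 12 ligand genes 9 were tested, and 7 were higher in EL4 and 2 lower, with a median of 1.77. The class I genes H2-Q4 (2.88, SE 0.218), H2-Q7 (2.45, SE 0.220) and H2-D1 (2.27, SE 0.192) were higher, and Cd74, the class II invariant chain (-5.45, SE 0.306), and H2-T23 (-1.81, SE 0.150) were lower. The class II gene H2-Eb1 was higher in EL4, by 1.70 (SE 0.201, edgeR adjusted p = 9.9e-05), at 3.12 ± 1.19 CPM against 1.05 ± 0.245 CPM (SD, n = 4 each). These H2 genes too share near-identical sequence. With 5′ v1, 14 partners, 19 regulators and 7 ligand genes were higher in EL4, and 4, 4 and 2 were lower, with medians of 6.31, 1.85 and 1.60. Of all genes in that comparison, 42.3% were higher and 42.8% lower.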

How the data were processed

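Counts were UMI counts per gene and barcode, deposited by the authors for 7 of the 8 listed libraries used here (the first 3′ v2 replicate is not analysed here). Per the study's methods and processing notes, reads were downsampled to a like depth, aligned to a combined hg19 and mm10 reference (10x reference version 1.2.0) and counted with Cell Ranger 3.0.2, and all barcodes were kept. Mixtures were taken from the study's sample summary. Barcodes under 1000 UMIs, of mixed species or between the line limits were left out, and no doublet caller was run. Raw counts were summed per library and line and tested with edgeR 4.0.16 (R 4.3.3), with TMM scaling, filterByExpr, the quasi-likelihood test, and the library as block for line comparisons and interactions. Adjusted p-values are Benjamini-Hochberg over all genes of the species, called under 0.05. SEs were derived as the absolute log2 fold change over the root of F. DESeq2 1.42.0 and other filters were alternatives. Interactions are the 3′ v3 minus the 5′ v1 line difference. Intervals are exact (95%) and cover counting error only, and a count of 0 was given the limit of 3 counts. Shares were thinned to 1000 UMIs of the cell's species, leaving out shallower cells, with Python 3.11.15, numpy 2.4.6, scipy 1.17.1 and pandas 2.3.3. The fits were also run on counts simulated from their own fitted variability, for genes that passed the filter. That run covers neither the difference between mixtures nor the fits without the filter on low counts. The members and lists were chosen with earlier results of these data known. Named were all 6 members, the up to 3 called genes with the largest change in each direction per list and line comparison in 3′ v3, the 3 nearest genes by pattern, and the marker genes; LCK, LAG3 and the class II genes were named after their values were seen.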

Additional observations from a re-analysis of the deposited data

Results flagged for a closer look

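CD4 in TALL-104 with 3′ v3 stood apart in replicate 3, the only library of the 4 with a UMI, at 0.477 CPM and a thinned share of 0.0421% of cells. This rests on 1 UMI. Where the other libraries are at 0, any single UMI is flagged, so the flag adds nothing to that UMI.

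Coreceptor UMIs were also found in barcodes that were given to no line. The 1070 human barcodes between the TALL-104 and Jurkat limits held 12 UMIs of CD4, 35 of CD8A and 104 of CD8B, at 1.199, 3.496 and 10.4 CPM. The 2347 barcodes of mixed species held 13 UMIs of CD4, 42 of CD8A and 49 of CD8B, at 1.88, 6.07 and 7.08 CPM of human UMIs. All these counts are above the limit that a count of 0 allows, and in the first class CD8A lay between its pooled levels in Jurkat (0.864 CPM) and TALL-104 (47.5 CPM), whereas CD8B lay above both (6.55 and 1.37 CPM).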

How the results depend on the processing

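The higher CD8A and the lower CD8B of TALL-104 in 3′ v3 kept direction and call in the 12 alternatives that could be fitted for each, at 5.53 to 5.82 and at -2.76 to -2.05 (highest adjusted p = 0.0154, edgeR). CD8A failed the filter where over 95% of UMIs had to come from 1 species, and CD8B where cells were limited to 10% mitochondrial UMIs. The labels' replicate numbers pair no samples, so the block was the library. Without the replicate block, CD8A was 5.71 and CD8B -2.40 (adjusted p = 0.00280), and the partners called higher fell from 12 to 8. At over 95% of UMIs from 1 species, genes called between TALL-104 and Jurkat in 3′ v3 went from 7164 to 4158, partners from 12 higher to 7, and regulators from 7 higher to 3. DESeq2's Wald test moved the calls in 5′ v1 from 3227 to 1600 and the kit calls in IVA12 from 1164 to 2002. Without the filter on low counts, kit calls in TALL-104 went from 390 to 705 and human interaction calls from 158 to 283, and at over 95% the former were 235. Leaving out each library gave 1063 to 4347 kit calls in EL4 (4480 with all libraries), 18 to 846 in IVA12, 113 to 2161 in Jurkat (2478 with all), 9 to 624 in TALL-104, 1452 to 4330 for the mouse interaction (4036) and 2 to 386 for the human interaction. It gave 9199 to 9590 calls between EL4 and IVA12 and 6279 to 7475 between TALL-104 and Jurkat in 3′ v3. Without 5′ v1 replicate 1, direction turned for the kit difference of CD8A in Jurkat (-0.15, range -0.15 to 0.97) and in TALL-104 (0.023, range -0.84 to 0.023), and for the interaction of CD8A (0.23, range -1.88 to 0.23) and CD8B (6.31, range -2.56 to 6.31). The share differences turned for CD8B in TALL-104 (0.118, range -0.398 to 0.118) and Cd4 in EL4 (0.00486, range -0.0243 to 0.00486). None of these had passed, and the cause was not tested. Line comparisons in 5′ v1 without a library were not run, since 1 library leaves no residual degrees of freedom. The 30 to 70 TALL-104 cells per library of 5′ v1 limit what that kit can show.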

Other observations

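The genes whose pattern over the 14 sums of human line and library was nearest to each coreceptor were taken by the root mean square difference in log2(CPM + 1), among genes with at least 50 UMIs. These distances describe likeness of level only. For CD8A, the nearest were CDIP1 (0.39), TCIRG1 (0.40) and GEM (0.43), with mean levels of 58.6, 51.8 and 49.0 CPM in TALL-104 and 1.40, 0.718 and 0.404 CPM in Jurkat. For CD8B, they were CTD-2366F13.1 (0.45), LINC00694 (0.46) and MYO1C (0.47), at 5.42, 6.66 and 6.57 CPM in Jurkat and 1.36, 1.79 and 1.58 CPM in TALL-104. For CD4, they were WDR31 (0.21), RP11-137H2.6 (0.23) and RP11-424N24.2 (0.23), all at 1.62 to 2.11 CPM in Jurkat and at most 0.136 CPM in TALL-104. The mouse coreceptors had under 50 UMIs each and were not compared in this way.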
